A study of Sus scrofa with 2 samples.

Results

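The ADAM and ADAMTS genes were taken as every gene whose symbol in the gene list of the count matrices begins with ADAM followed by a digit, or with ADAMTS, so that the ADAMTS-like (ADAMTSL) genes are included. This rule uses the symbol alone and gave 44 of the 31908 genes of the pig annotation. The family has secreted members such as ADAMTS13 and membrane members such as ADAM17.

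ADAM proteins (a disintegrin and metalloprotease) are mostly anchored in the cell membrane, where the catalytic members cut the outer part off other membrane proteins, a step called ectodomain shedding. ADAMTS proteins carry thrombospondin repeats in addition, are secreted, and cut extracellular matrix and plasma proteins such as versican, procollagens and von Willebrand factor. In skin they are known for turning over the dermal matrix, for processing collagen and for releasing growth factors and cytokines, while ADAMTSL proteins and some ADAM proteins have no protease activity and act by binding.

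The cells came from the dorsal skin of male farm pigs. Their RNA was sequenced in droplets with the 3′ chemistry of 10x Genomics, where each captured transcript carries a unique molecular identifier (UMI) and is counted once. The fresh library had no treatment, and the cryopreserved library was made from cells that had been frozen in FBS with DMSO, kept in liquid nitrogen and thawed. Both suspensions came from the same dissociation kit, with an enzyme incubation at body temperature, and dead cells were removed from both by FACS. There was 1 library per condition, the labels do not say whether both came from the same animal, and the protocol text attached to both samples describes freezing.

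The matrices held 4379 fresh and 4860 cryopreserved barcodes, and 2775 and 4223 cells passed the limits of the study on genes, UMIs and mitochondrial share. These cells held 32274985 and 36687009 UMIs, with a median of 11017 and 7945 UMIs per cell. The libraries shared 6 barcode sequences. Clustering of the cells, with the ADAM and ADAMTS genes left out of the genes used for it, gave 23 clusters. Of these, 22 were named from marker genes in 9 classes, and cluster 21, with 3 fresh and 22 cryopreserved cells, stayed unnamed. With 1 library per condition no test between the conditions is possible, so every value describes these libraries, and all intervals below are 95% intervals that cover counting error only.

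The catalytic site is shown first because it sets most members known as proteases apart from those without protease activity. It is a zinc-binding motif of histidine, glutamate, any 2 residues, histidine, any 2 residues, glycine or asparagine, any 2 residues and histidine. In the Sscrofa11.1 annotation of RefSeq, 40 of the 44 members were found by symbol, and the motif was found in the longest coding sequence of 27 of them. In 22 the eighth codon was glycine, and in 5 (ADAMTS1, ADAMTS4, ADAMTS9, ADAMTS15 and ADAMTS20) it was asparagine. The 13 without a match were the 5 ADAMTSL genes, ADAM2, ADAM3A, ADAM7, ADAM11, ADAM22, ADAM23, ADAM30 and ADAMTS8. For ADAM30 and ADAMTS8, which are proteases in other mammals, this says only that these letters are not in the annotated pig sequence. The coding sequences of the motif are given for the members that lead the results, read 5′ to 3′ on the coding strand, with the codons of the histidines and the eighth codon in capitals.
ADAMTS4: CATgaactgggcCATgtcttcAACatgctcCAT
ADAMTS9: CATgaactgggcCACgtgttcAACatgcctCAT
ADAMTS1: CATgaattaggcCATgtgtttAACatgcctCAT
ADAMTS5: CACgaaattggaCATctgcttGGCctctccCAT
ADAMTS2: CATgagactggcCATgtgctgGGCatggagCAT
ADAMTS12: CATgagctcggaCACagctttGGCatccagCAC
ADAMTS13: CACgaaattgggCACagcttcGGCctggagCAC
ADAM9: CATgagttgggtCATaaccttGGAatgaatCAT
ADAM17: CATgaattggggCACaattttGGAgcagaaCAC
ADAM10: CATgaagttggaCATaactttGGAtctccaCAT
ADAM12: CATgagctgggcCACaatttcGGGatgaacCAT
ADAM8: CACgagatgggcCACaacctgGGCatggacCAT
The motif of ADAMTS4 lies on the plus strand of chromosome 4 between 89263335 and 89263928 and is split by an intron, as it is in all the ADAMTS genes shown. The motif of ADAMTS13 is on the plus strand of chromosome 1, between 273029213 and 273031303. That of ADAM17 lies within a single exon at 126835051 to 126835083 on the plus strand of chromosome 3. The 3 members with the most UMIs in this skin, ADAMTS4, ADAMTS9 and ADAMTS1, all carry the asparagine form.

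Over the filtered cells, the members held 73867 fresh and 71666 cryopreserved UMIs. Levels are given as CPM, the UMIs of a gene per 1000000 UMIs. For all cells together the totals were scaled with edgeR's TMM factors, and within classes the plain class totals were used. Because a 3′ kit counts 1 end of each transcript, CPM is not divided by gene length, although the capture may differ between genes. Of the 44 members, 33 reached 200 UMIs over both libraries, 8 had between 1 and 199 UMIs, and 3 (ADAMTS14, ADAM20 and ADAM30) had 0 UMIs in the filtered cells of both libraries. A count of 0 allows up to 0.113 CPM in the fresh and 0.102 CPM in the cryopreserved library by the exact Poisson interval.

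The family was carried by a few secreted proteases that cut proteoglycans. ADAMTS4, an aggrecanase, was the most abundant member with 487 CPM (interval 480 to 495) in fresh and 454 CPM (447 to 461) in cryopreserved cells. ADAMTS9, a versican-cleaving protease, had 319 and 216 CPM, and ADAMTS1, which cuts versican and aggrecan, had 267 and 245 CPM, fresh and cryopreserved in turn. These 3 genes together held 47.5% (fresh) and 46.2% (cryopreserved) of the family's UMIs. The top 10 members, with ADAMTS2, ADAMTS5, ADAMTS12, ADAM9, ADAM17, ADAM19 and ADAMTS17 added, held 81.5% and 79.7%. The 8 members under 200 UMIs were ADAMTS8, ADAM23, ADAMTSL2, ADAMTS16, ADAM18, ADAM3A, ADAM2 and ADAM21, from 101 UMIs for ADAMTS8 down to 3 for ADAM21. ADAM2, ADAM3A and ADAM18, which are known from sperm, had 10, 10 and 27 UMIs in both libraries together.

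The summed level of the family was highest in the mural-like and endothelial-like classes. The summed CPM of all 44 members was 6346 in fresh SMC or mural-like cells (smooth muscle cells and pericytes; 5419 in the cryopreserved library) and 4913 in endothelial-like cells (4296). Single genes made up much of these sums: in the fresh library ADAMTS4 had 2503 CPM in SMC or mural-like and ADAMTS9 3066 CPM in endothelial-like cells. The sum was 2654 in fibroblast-like cells (2572) and 2359 in lymphatic-like cells (2204). In the remaining classes it lay between 724 and 875 in the fresh and between 585 and 845 in the cryopreserved library. On these plain class totals the fresh library was the higher in 8 of the 9 classes. Mast-like cells, with 828 and 845 CPM, were the exception. No such count was made over all genes or with TMM factors. In fibroblast-like cells the median log2 ratio of all genes was -0.04 with total UMIs and 0.03 with TMM factors. The order of 2654 and 2572 can therefore depend on the scaling. The intervals of the mast-like cells overlapped (720 to 947 fresh and 739 to 961 cryopreserved), as did those of the lymphatic-like cells (2254 to 2467 and 2087 to 2327).

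The class with the highest level of a member was mostly the same in both libraries. This held for 27 of the 33 members with at least 200 UMIs (81.8%), beside 69.4 percent of all 11692 genes with that many UMIs. For 11 of the 33 (33.3%) the highest class was also at least 2-fold above the next in both libraries, beside 18.5 percent of all genes. Fibroblast-like cells were highest for 7 members (21.2%, beside 7.51 percent of all genes). SMC or mural-like cells were also highest for 7 (21.2%, beside 8.29 percent). Lymphatic-like cells led for 4 members, endothelial-like and keratinocyte-like cells for 3 each, Langerhans or other dendritic-like cells (below, dendritic-like cells) for 2 and T or NK-like cells for 1. The shares over all genes were 8.55, 5.88, 14.1, 2.77 and 8.19 percent in that order. CD163/CD209 myeloid-like and mast-like cells led for 0 members, beside 5.97 and 8.14 percent of all genes. With TMM factors across the classes in place of plain totals, the call of 7 members was different (ADAM9, ADAM22, ADAMTS3, ADAMTS7, ADAMTSL3, ADAMTS6 and ADAM19).

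**Figure D1:**
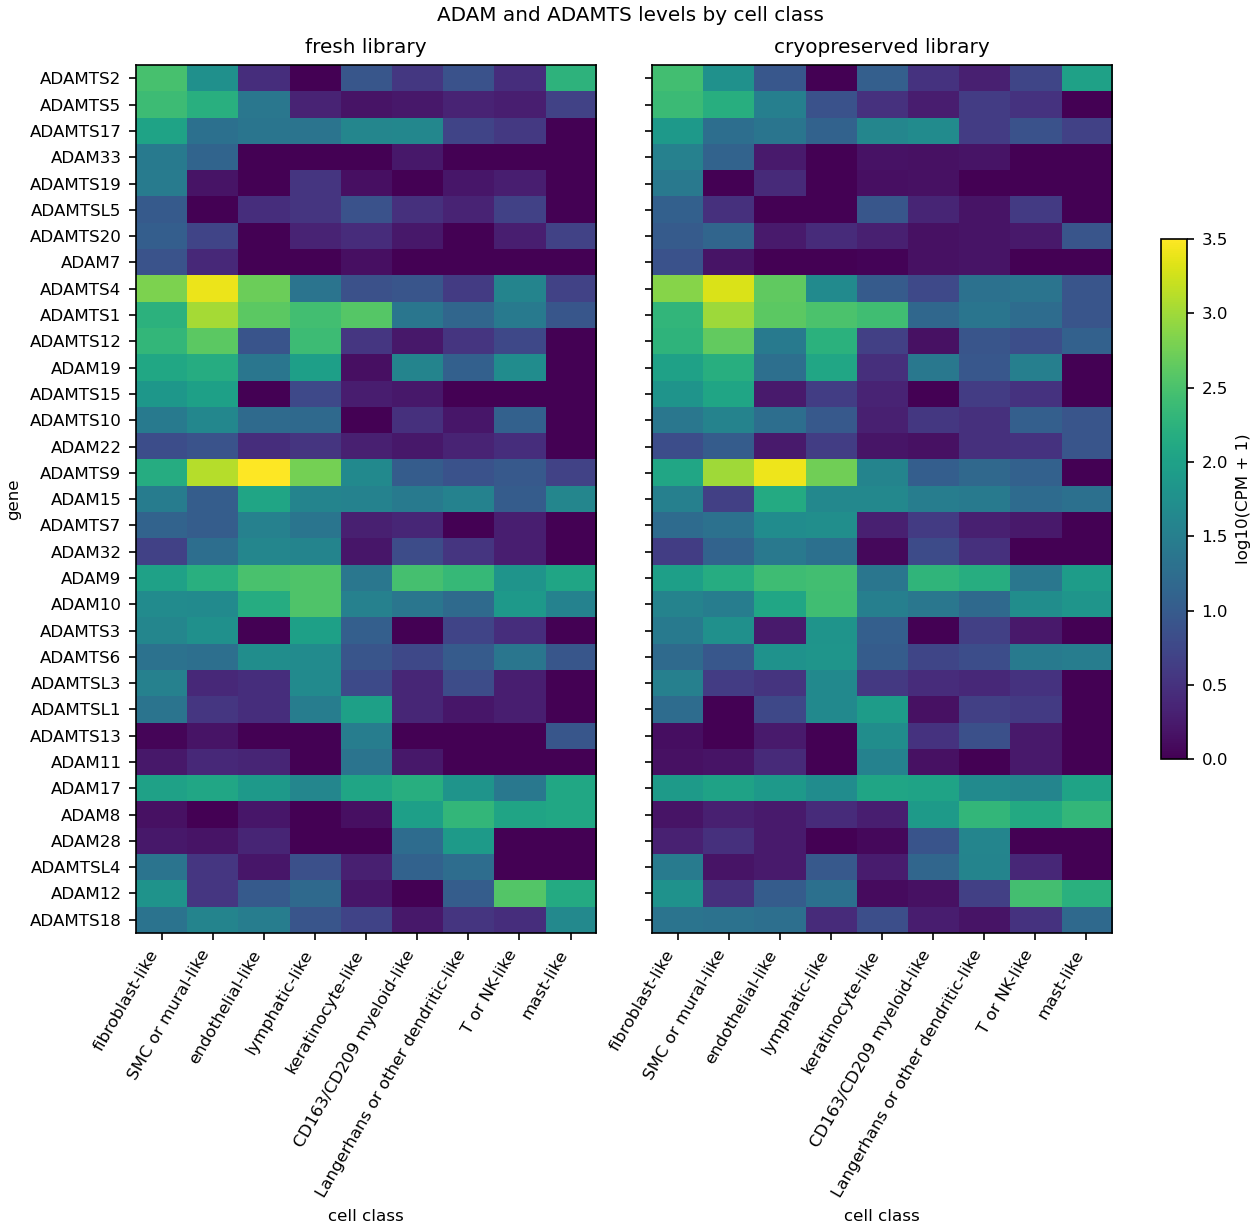
Level of the 33 members with at least 200 UMIs (rows) in the 9 cell classes (columns) of the fresh and the cryopreserved library, as log10(CPM + 1) in colour. The highest fields are ADAMTS9 in endothelial-like cells (3066 CPM fresh, 2538 cryopreserved) and ADAMTS4 in SMC or mural-like cells (2503 and 1991), and the patterns of the libraries look alike.

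RNA from burst cells or doublets can carry fibroblast transcripts into other classes. The collagen genes COL1A1, COL1A2 and COL3A1 took 10.9% (fresh) and 12.1% (cryopreserved) of UMIs in fibroblast-like cells. In the other 8 classes they took 0.0261 to 0.203% in the fresh and 0.0217 to 0.29% in the cryopreserved library. The upper end in the fresh library was the dendritic-like class, and in the cryopreserved library the endothelial-like class. Member UMIs outside fibroblast-like cells are set beside the number that would come with these collagen UMIs where a result turns on them.

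Among the proteoglycan-cleaving proteases, ADAMTS4 was highest in SMC or mural-like cells. Its level there was 2503 CPM (interval 2433 to 2575) in fresh and 1991 CPM (1928 to 2055) in cryopreserved cells. Fibroblast-like cells followed with 646 and 720 CPM and endothelial-like cells with 513 and 441 CPM. The endothelial UMIs were 805 and 556, where 2.81 and 21.8 would come with the collagen UMIs of that class. Keratinocyte-like cells had 6.34 and 9.12 CPM, which were 49 and 97 UMIs beside 12 and 13.7 by that measure.

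ADAMTS9 had its highest level in endothelial-like cells, with 3066 CPM (interval 2980 to 3154) in the fresh and 2538 CPM (2450 to 2627) in the cryopreserved library. SMC or mural-like cells had 1299 and 1003 CPM and lymphatic-like cells 591 and 548 CPM. The order of these classes was the same in both libraries. Within endothelial-like cells, 178 of 201 fresh (88.6%) and 240 of 271 cryopreserved cells (88.6%) held a UMI of ADAMTS9.

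ADAMTS1 was found in all stromal, vessel and keratinocyte-like classes. Its level was 1082 and 974 CPM in SMC or mural-like cells, 412 and 411 in endothelial-like, 381 and 269 in keratinocyte-like, 276 and 324 in lymphatic-like and 174 and 202 in fibroblast-like cells. In the 4 leukocyte classes it lay between 7.38 and 26.3 CPM. The keratinocyte-like UMIs (2943 and 2857) were far above the 3.24 and 3.84 that would come with collagen. Within the mural-like cells, cluster 12 had 1532 and 1298 CPM of ADAMTS1 and cluster 8 had 720 and 777 CPM.

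ADAMTS5, the second known aggrecanase, was found in stromal cells. Fibroblast-like cells had 253 and 245 CPM and SMC or mural-like cells 161 and 157 CPM, while keratinocyte-like cells had 0.517 and 2.16 CPM. ADAMTS15, which cuts versican, had 97.2 and 113 CPM in SMC or mural-like and 71.1 and 63.7 CPM in fibroblast-like cells. In endothelial-like cells ADAMTS15 had 0 and 1 UMI. ADAMTS20, known from pigment cell migration, was low, with 10.2 and 9.06 CPM in fibroblast-like cells, and ADAMTS8 had 44 and 57 UMIs in all.

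Fibroblast-like cells were not uniform in these proteases. Cluster 0, led by MYOC, had 1434 and 1473 CPM of ADAMTS4 and cluster 7, led by GFPT2, had 1490 and 1321 CPM. Clusters 1 and 4, both with CPZ and type I collagen genes among their leading genes, had 129 and 108 CPM and 168 and 142 CPM of ADAMTS4. ADAMTS5 followed the same division, with 592 and 424 CPM in cluster 0, 463 and 502 in cluster 7, and 43.8 to 85.9 in clusters 1 and 4. Cluster 18, led by CRABP1, was low in ADAMTS4 (143 and 218 CPM) but had 281 and 327 CPM of ADAMTS5, and cluster 5 was between the extremes for both. The clusters were formed without these genes.

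ADAMTS17, whose protein is known to bind fibrillin, had another division. It had 180 and 155 CPM in cluster 1 and 178 and 188 CPM in cluster 5, which was led by CCL19, but 53.6 and 40.0 CPM in cluster 0 and 33.9 and 28.9 CPM in cluster 7. In cluster 5, ADAMTS15 was at 168 and 121 CPM, the highest of the fibroblast-like clusters. ADAMTS2 differed least, between 227 and 364 CPM in the fresh and between 196 and 336 CPM in the cryopreserved library over the 6 fibroblast-like clusters. ADAMTS12 separated the mural-like clusters: cluster 8 had 720 and 684 CPM, and cluster 12, which had MYH11 among its leading genes, 36.2 and 66.0 CPM. ADAMTS4 was close in both mural-like clusters, with 2545 and 1979 CPM in cluster 8 and 2451 and 2011 in cluster 12.

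**Figure D2:**
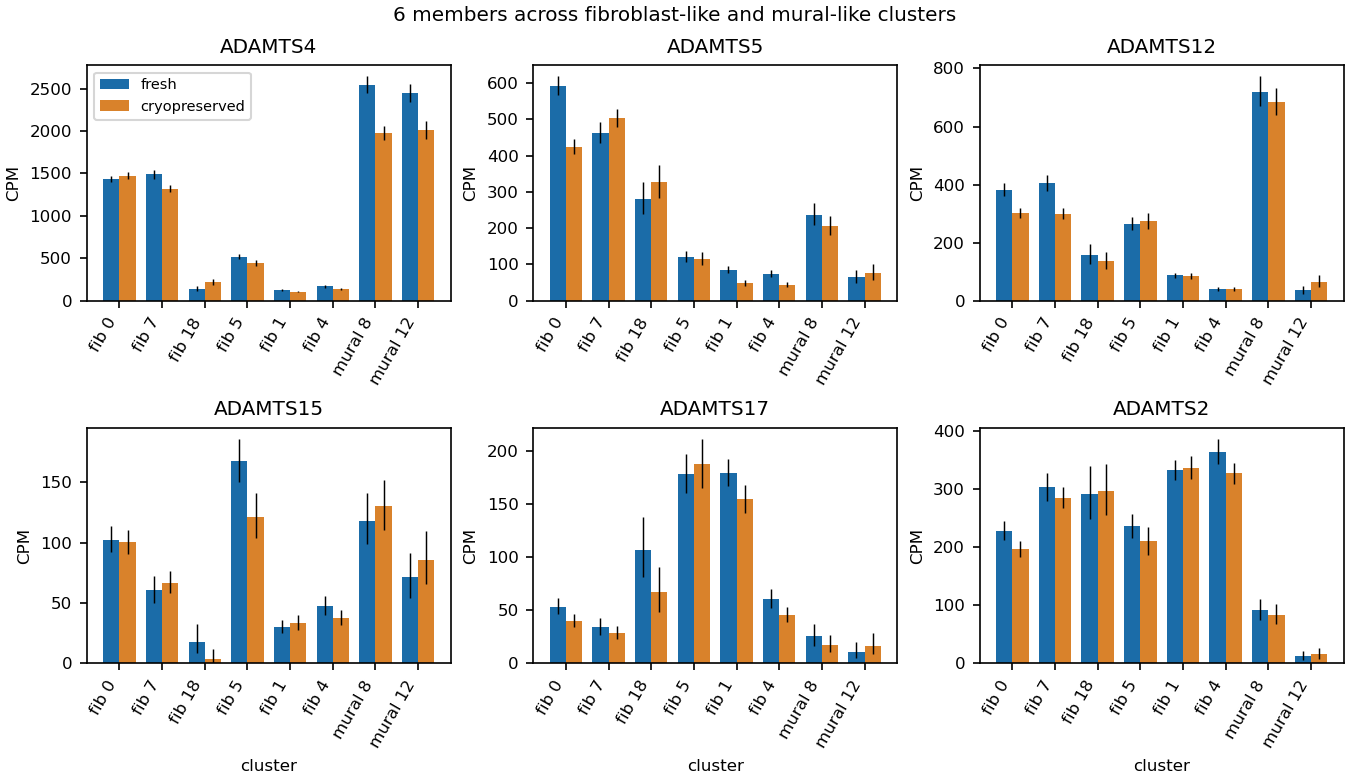
CPM of 6 members (panels) in the 6 fibroblast-like (fib) and 2 mural-like clusters of the fresh (blue) and the cryopreserved library (orange), with 95% Poisson intervals as error bars and each axis starting at 0. ADAMTS4 and ADAMTS5 are high in clusters 0 and 7, ADAMTS17 in clusters 5 and 1, and ADAMTS12 in cluster 8 but not in cluster 12.

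Of the procollagen N-propeptidases, which trim the amino end of fibrillar procollagens, ADAMTS2 was the main one. It had 297 CPM in fresh and 277 CPM in cryopreserved fibroblast-like cells. The next class was mast-like cells with 183 and 99.6 CPM (47 and 27 UMIs), where 0.197 and 0.47 UMIs would come with collagen. ADAMTS3, which also activates the lymphatic growth factor VEGFC, was highest in lymphatic-like cells at 96.4 and 63.5 CPM (78 and 38 UMIs). SMC or mural-like cells had 56.2 and 56.8 CPM of ADAMTS3. Among fibroblast-like clusters, cluster 0 had 102 and 66.0 CPM of it. Over all fibroblast-like cells, 1 cell of each library held 85 of 628 UMIs (fresh) and 76 of 437 (cryopreserved). ADAMTS14, the remaining propeptidase, had 0 UMIs.

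The proteases known to cut cartilage oligomeric matrix protein were ADAMTS12 and ADAMTS7. ADAMTS12 had 415 and 450 CPM in SMC or mural-like, 247 and 169 in lymphatic-like and 209 and 189 in fibroblast-like cells, and 7.01 and 27.0 in endothelial-like cells. ADAMTS7 was rarer in SMC or mural-like cells, at 9.88 and 19.3 CPM, and reached 33.1 and 49.2 CPM in endothelial-like and 22.2 and 53.4 CPM in lymphatic-like cells. The ADAMTS7 values rest on 18 to 62 UMIs per class and library there, and their order between the vessel classes differed between the libraries.

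Among members that bind fibrillin microfibrils, ADAMTS10 was highest in SMC or mural-like cells (40.6 and 35.4 CPM) and ADAMTS6 in the vessel classes (50.3 and 60.3 CPM in endothelial-like, 48.2 and 66.8 in lymphatic-like cells). ADAMTS19, linked to heart valve disease, was nearly confined to fibroblast-like cells in these libraries, with 435 of its 443 fresh and 412 of its 419 cryopreserved UMIs. ADAMTS18 was low and scattered, with 20.6 and 21.2 CPM in fibroblast-like and 37.4 and 19.8 CPM in SMC or mural-like cells. ADAMTS16 had 63 UMIs in all.

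The ADAMTSL genes, which encode matrix proteins without a protease domain, each had a pattern of their own. ADAMTSL1 was highest in keratinocyte-like cells at 95.3 and 84.3 CPM, where 227 of 530 fresh and 382 of 1057 cryopreserved cells held a UMI of it. ADAMTSL3 had 45.7 and 45.1 CPM in lymphatic-like and 33.9 and 32.3 CPM in fibroblast-like cells, of which cluster 0 had 95 and 87.9 CPM. ADAMTSL4, whose loss is known to dislocate the eye lens, had 21.5 and 27.4 CPM in fibroblast-like and 16.9 and 37.0 CPM in dendritic-like cells. ADAMTSL5 stayed at or below 10.9 CPM in all classes, and ADAMTSL2 had 80 UMIs in all.

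ADAMTS13 cuts von Willebrand factor in plasma and is known as a product of hepatic stellate cells and of endothelium. Here it was found in keratinocyte-like cells, with 230 of its 235 fresh and 542 of its 567 cryopreserved UMIs. That was 29.7 CPM (interval 26.0 to 33.8) for fresh and 51.0 CPM (46.8 to 55.5) for cryopreserved cells. In endothelial-like cells there were 0 UMIs in 201 fresh cells and 1 UMI in 271 cryopreserved cells. Von Willebrand factor itself (VWF) had 752 and 851 CPM in the endothelial-like cells.

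The ADAMTS13 UMIs lay in a minority of the keratinocyte-like cells. A UMI of it was found in 44 of 530 fresh cells (8.30%, exact binomial interval 6.10 to 11%) and in 90 of 1057 cryopreserved cells (8.52%, 6.90 to 10.4%), at median depths of 14860 and 9693 UMIs per cell. In fibroblast-like cells, at median depths of 12660 and 9959, the shares were 0.165% and 0.318%. After thinning to 2000 UMIs per cell, which left out 6 fresh and 18 cryopreserved keratinocyte-like cells with fewer, the shares in keratinocyte-like cells were 3.24% (1.90 to 5.14%) and 4.72% (3.51 to 6.19%), with overlapping intervals.

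Cells that held ADAMTS13 held several UMIs of it. The median positive cell had 5 UMIs (fresh) and 4 UMIs (cryopreserved), and the highest cells had 23 and 43. If the UMIs had been spread over the keratinocyte-like cells in proportion to depth, 183 fresh and 411 cryopreserved cells would hold 1 or more, so the observed numbers were 0.24 and 0.219 of these. ADAM11, found in the same class at a like level, is a useful contrast. It had 166 and 367 UMIs in 138 and 292 cells, a median of 1 per positive cell, and 0.983 and 0.964 of the number given by depth. Across the 33 members, each taken in its highest class, this ratio had a median of 0.74 for fresh and 0.781 for cryopreserved cells, and ADAMTS13 was the lowest in both. This measure was chosen after the values of ADAMTS13 had been seen.

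Positive cells were found in all 5 keratinocyte-like clusters. Cluster 10, which had KRT15 and COL17A1 among its leading genes, had ADAMTS13 in 21 of 123 fresh (17.1%) and 31 of 218 cryopreserved cells (14.2%). Cluster 13, led by the differentiation genes KRT1 and KRT10, had it in 8 of 86 (9.30%) and 22 of 161 cells (13.7%). Cluster 19, the smallest of the 5, had it in 5 of 23 (21.7%) and 9 of 71 cells (12.7%). Cluster 2, which also had KRT1 among its leading genes, had it in 9 of 194 (4.64%) and 16 of 369 (4.34%). Cluster 9, which also had KRT15 among its leading genes, had it in 1 of 104 fresh and 12 of 238 cryopreserved cells. These leading genes thus did not separate clusters with higher shares from those with lower shares. In the RefSeq annotation the gene spans 273022014 to 273066916 on the plus strand of chromosome 1 and overlaps CACFD1 on the same strand and SLC2A6 on the other. Reads in overlapping parts of genes can be hard to assign, and how the counting treated them is not given in the sources used here. CACFD1 was highest in fibroblast-like cells (9.26 and 16.0 CPM) and had 2.85 and 4.14 CPM in keratinocyte-like cells. SLC2A6 had 0 fresh and 1 cryopreserved UMI in keratinocyte-like cells. Both genes were looked at after the values of ADAMTS13 had been seen. Reads counted as ADAMTS13 would be missing from their UMIs, so these counts cannot show how reads in the overlap were assigned, which was not tested.

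**Figure D3:**
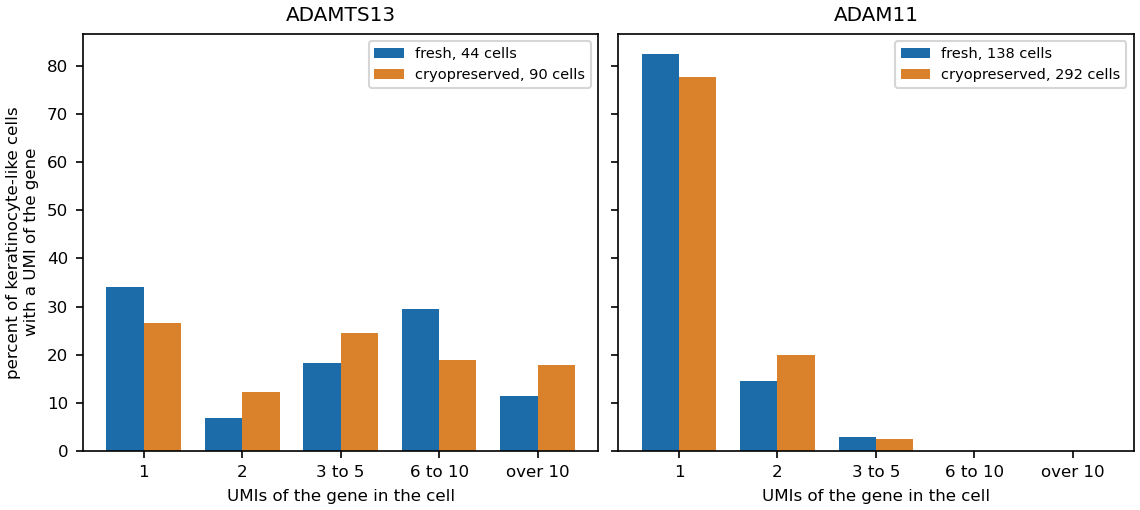
Keratinocyte-like cells with at least 1 UMI of ADAMTS13 (left) or ADAM11 (right), grouped by the number of UMIs of the gene in the cell, as percent of these cells in the fresh (blue) and the cryopreserved library (orange). For ADAMTS13, 18 of 44 fresh and 33 of 90 cryopreserved cells held 6 or more UMIs, and for ADAM11 0 cells of either library did.

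Among the membrane-anchored metalloproteases, ADAM17, the main sheddase of TNF and of EGF receptor ligands, was the most even. Its class levels lay between 24.5 and 153 CPM in the fresh and between 37.6 and 114 CPM in the cryopreserved library. The highest class was CD163/CD209 myeloid-like in the fresh (153 CPM) and keratinocyte-like in the cryopreserved library (114 CPM), so no class can be named for it. ADAM9, a sheddase of wide distribution, was higher in lymphatic-like (346 and 279 CPM), endothelial-like (311 and 260), CD163/CD209 myeloid-like (295 and 195) and dendritic-like cells (221 and 150) than in keratinocyte-like cells (23.3 and 23.0). The intervals of the lymphatic-like and endothelial-like cells overlapped in both libraries.

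ADAM10, which cuts Notch receptors and cadherins, was highest in lymphatic-like cells. It had 347 CPM (interval 308 to 390) in fresh and 264 CPM (224 to 308) in cryopreserved cells of this class, above the 146 and 115 CPM of endothelial-like cells. Levels in the other classes were between 14.6 and 76.2 CPM. TSPAN5, a tetraspanin that brings ADAM10 to the cell surface, was also highest in lymphatic-like cells, at 1343 and 997 CPM. The other listed ADAM10 partners were highest in this class or in endothelial-like, dendritic-like, keratinocyte-like or fibroblast-like cells. ADAM15, known from endothelial junctions, had 114 and 138 CPM in endothelial-like cells and at most 42.5 CPM elsewhere. ADAM19, which sheds neuregulins, had 148 and 154 CPM in SMC or mural-like, 120 and 100 in fibroblast-like and 92.7 and 115 in lymphatic-like cells.

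ADAM12, known from myoblasts and activated fibroblasts, was highest in T or NK-like cells. These had 359 CPM (interval 324 to 397) in the fresh and 288 CPM (260 to 318) in the cryopreserved library, beside 61.4 and 60.6 CPM in fibroblast-like cells. Mast-like cells had 136 and 166 CPM on 35 and 45 UMIs. A UMI was found in 69 of 145 fresh (47.6%, exact binomial interval 39.2 to 56.0%) and 118 of 253 cryopreserved T or NK-like cells (46.6%, 40.4 to 53.0%), at median depths of 6512 and 4820. In keratinocyte-like cells, which were deeper, the shares were 0.943% and 0.284%. The UMIs that would come with collagen in T or NK-like cells were 0.302 and 0.267, beside the 382 and 390 found. Cluster 16, led by GNLY, had 592 and 368 CPM and cluster 15, with CD3E among its leading genes, 179 and 216 CPM.

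ADAM8 was found mainly in the leukocyte classes, and ADAM28 mainly in the dendritic-like and CD163/CD209 myeloid-like classes. ADAM8, which leukocytes use in migration, had 206 and 208 CPM in dendritic-like, 121 and 207 in mast-like, 110 and 134 in T or NK-like and 92.3 and 80.7 in CD163/CD209 myeloid-like cells. In the other 5 classes it lay between 0 and 1.67 CPM. ADAM28 had 81.0 and 38.1 CPM in dendritic-like and 16.3 and 7.13 CPM in CD163/CD209 myeloid-like cells, and at most 2.08 CPM elsewhere. ADAM33, a gene linked to asthma, had 410 of its 435 fresh and 557 of its 588 cryopreserved UMIs in fibroblast-like cells.

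The ADAM proteins without protease activity were rarer. ADAM11, a relative of the synaptic receptor ADAM22, was found in keratinocyte-like cells at 21.5 and 34.5 CPM, with 166 of 183 fresh and 367 of 379 cryopreserved UMIs there. ADAM22 stayed at or below 9.38 CPM in all classes. ADAM32 had 38.9 and 25.4 CPM in endothelial-like and 37.1 and 18.4 CPM in lymphatic-like cells, and ADAM7, known from the epididymis, had 107 of its 113 fresh and 108 of its 112 cryopreserved UMIs in fibroblast-like cells. ADAM23 had 91 UMIs in all.

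ADAM32, ADAM18, ADAM20 and ADAM21, the 4 members without a RefSeq entry of their symbol, were not placed in the genome. Among the other 40 members, 5 pairs of neighbours lay at most 500000 bases apart. The closest, ADAMTS8 and ADAMTS15, are 14.4 kb apart on chromosome 9, and both were highest in SMC or mural-like and next in fibroblast-like cells in both libraries, ADAMTS8 on only 15 and 15 UMIs in the former. Another 3 pairs differed in their classes. ADAMTS1 and ADAMTS5 are 67.1 kb apart on chromosome 13, and in keratinocyte-like cells ADAMTS1 had 381 and 269 CPM and ADAMTS5 0.517 and 2.16 CPM. ADAM28 and ADAM7 are 45.8 kb apart on chromosome 14, and the former was found in dendritic-like and the latter in fibroblast-like cells. ADAMTS13 and ADAMTSL2 are 52.9 kb apart on chromosome 1, and ADAMTSL2 was highest in endothelial-like cells. The remaining pair, ADAM2 and ADAM9, is 245.5 kb apart on chromosome 15, and ADAM2 had too few UMIs (10) to compare.

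The comparison of the libraries asks whether freezing in 90% FBS with 10% DMSO left the expression of these genes as it was in fresh cells. Summed over all filtered cells, the median log2 ratio of the 33 members, cryopreserved over fresh, was -0.16, with 8 members higher and 25 lower in the cryopreserved library. Over all 11692 genes the median was 0.03, and 46.5 percent of them were lower. The median size of the log2 ratio was 0.2 for the members and 0.23 for all genes. A size of 0.5 or more was reached by 6 of the 33 members, beside 13.1 percent of all genes, and a size of 1 or more by 1 member, ADAMTS13, beside 1.05 percent.

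Those 6 were ADAMTS13 and ADAM11, which were higher in the cryopreserved library (8.24 percent of all genes were higher by that size), and ADAM28, ADAM32, ADAMTS9 and ADAMTS3, which were lower (4.86 percent). ADAMTS13 had 235 fresh and 567 cryopreserved UMIs, or 7.19 and 15.7 CPM, a log2 ratio of 1.12 (interval 0.90 to 1.35). ADAM11 had 183 and 379 UMIs, a log2 ratio of 0.90 (0.65 to 1.17). ADAM28 had 172 and 114 UMIs, a log2 ratio of -0.74 (-1.09 to -0.39), and ADAM32 had 202 and 138, a log2 ratio of -0.69 (-1.02 to -0.38). ADAMTS9 had 10442 and 7832 UMIs (-0.56, interval -0.60 to -0.52) and ADAMTS3 903 and 704 (-0.51, -0.65 to -0.36). The intervals treat each UMI as independent, which the UMIs of a single cell are not. The size of these differences depended on which barcodes were used. Over all barcodes, with those above the study's limits included, the log2 ratio was 0.52 for ADAMTS13, 0.54 for ADAM11 and -0.26 for ADAMTS9, and the fresh level of ADAMTS13 was 11.6 CPM. Without the mitochondrial limit alone, ADAMTS13 had a log2 ratio of 0.91.

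The libraries also held different shares of the classes. Fibroblast-like cells were 1214 of 2775 fresh and 1572 of 4223 cryopreserved cells, and keratinocyte-like cells 530 and 1057. In a sum over all cells, a class that is rarer and a gene that is lower within its class cannot be told apart. When the class shares of the fresh library were applied to both libraries, the median of the members was 0.04, with 20 higher and 13 lower, beside a median of 0.03 over all genes, of which 53.3 percent were higher. The members were thus below the median of all genes in the plain sum and close to it with equal shares of cells per class. The weighting does not make the shares of UMIs equal, because depth per cell differed between the libraries by unlike amounts among classes. Median UMIs per cell were 6531 (fresh) and 3969 (cryopreserved) in endothelial-like cells, and 12660 and 9959 in fibroblast-like cells. With this weighting, ADAMTS4, ADAMTS2 and ADAMTS5 were among 9 members with an interval below 0 over all cells that were no longer below 0. Such changes were not counted over all genes, so the 9 cannot be read as particular to the family. The log2 ratio of ADAMTS13 was then 0.78, that of ADAM11 0.56, and that of ADAMTS9 -0.40. A size of 0.5 was then reached by 5 members that were higher (7.85 percent of all genes) and 2 that were lower (3.1 percent). The former were ADAMTS13, ADAM11, ADAMTS7 (0.57), ADAMTSL4 (0.54) and ADAM33 (0.54), and the latter ADAM28 (-0.79) and ADAM32 (-0.53).

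**Figure D4:**
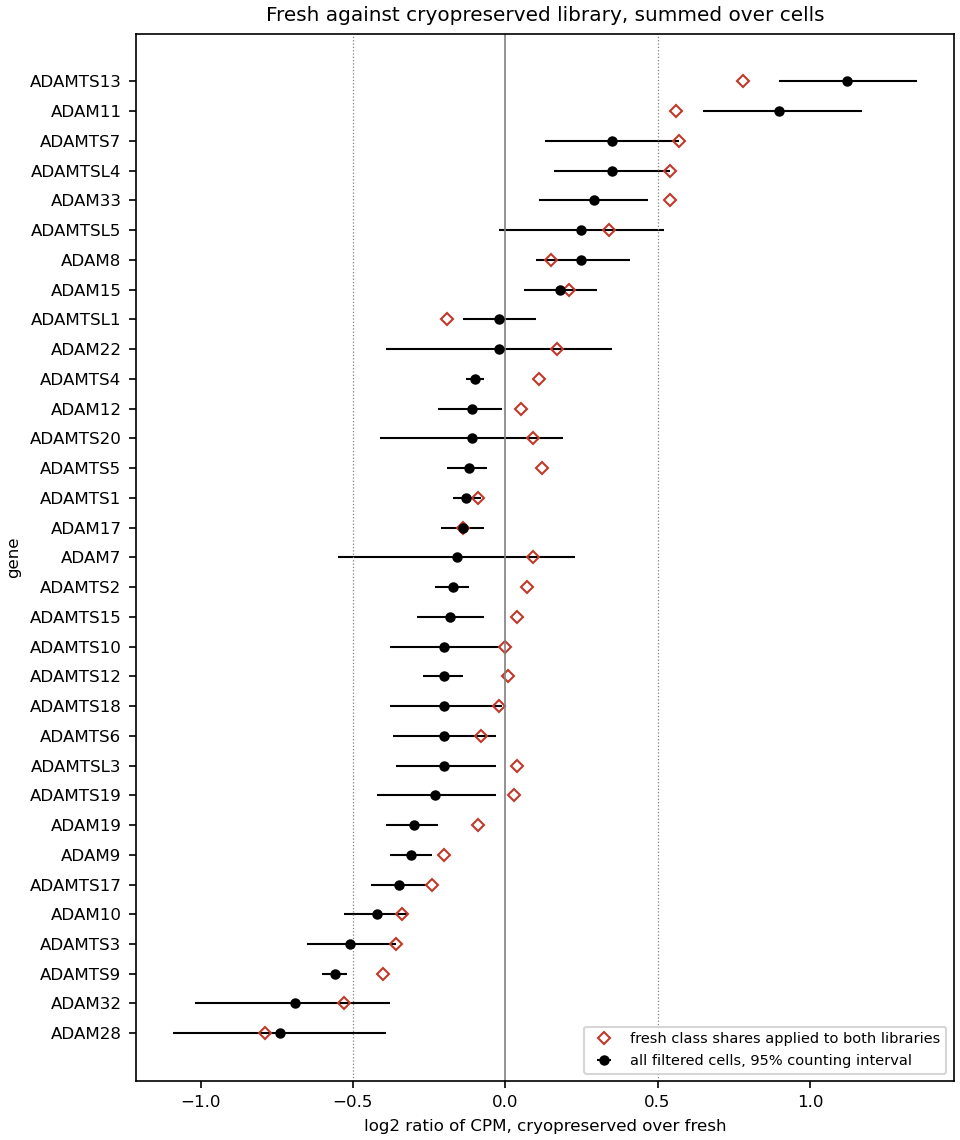
Log2 ratio of CPM, cryopreserved over fresh, of the 33 members with at least 200 UMIs, summed over all filtered cells (black points, 95% counting intervals) and with the class shares of the fresh library applied to both (red diamonds). Dotted lines mark 0.5 in each direction, and most diamonds lie to the right of their points, while those of ADAMTS13 (1.12 and 0.78) and ADAM11 (0.90 and 0.56) lie to the left.

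Within fibroblast-like cells, shares of the classes play no part, but shares of the fibroblast-like clusters can. Cluster 7, for example, held 126 of 1214 fresh and 243 of 1572 cryopreserved fibroblast-like cells. In this class 27 members reached 200 UMIs, with a median log2 ratio of -0.04, beside 0.03 over all 8944 genes tested there. A size of 0.5 or more was reached by 1 of the 27, ADAMTS3 (-0.52, interval -0.70 to -0.34), beside 15.2 percent of all genes. It was lower in the cryopreserved library, as were 5.85 percent of all genes by that size, and 0 members were higher by 0.5, beside 9.37 percent of all genes. Of the 27 members 16 were below 0, beside 47.1 percent of all genes. A size of 1 or more was reached by 0 members and 0.839 percent of all genes. On plain class totals, ADAMTS4 had 646 CPM in fresh and 720 CPM in cryopreserved fibroblast-like cells, and ADAMTS2 had 297 and 277 CPM. With TMM factors, their log2 ratios were 0.22 (interval 0.18 to 0.26) and -0.04. These ratios are therefore not those of the printed CPM. The levels by cluster, as given above, also used plain totals. In the cryopreserved library the ADAMTS4 level was lower in clusters 1, 4 and 7 and higher in clusters 0 and 18. The remaining fibroblast-like cluster is left out, because its ADAMTS4 levels are not given. The part of cluster shares in the ratio of 0.22 was not tested.

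Most UMIs of ADAMTS13 and ADAM11 lay in keratinocyte-like cells, so their ratios in this class are not a second observation beside those over all cells. Of 10 members with at least 200 UMIs in this class, 2 were higher by 0.5 or more and 1 was lower. Over all 7753 genes tested there, 499 were higher and 167 lower by that size. ADAMTS13 had a log2 ratio of 0.77 (interval 0.55 to 1.0) there, and ADAM11, at 21.5 and 34.5 CPM, one of 0.68 (0.41 to 0.95). The share of cells with ADAMTS13 was almost the same in both libraries (8.30 and 8.52%) at a lower depth in the cryopreserved library. Barcodes removed by the limits held 383 fresh and 131 cryopreserved UMIs of ADAMTS13 (18.2 and 23.7 CPM of those barcodes). They were not assigned to classes, so how far the ratio of 0.77 depends on the limits was not tested. ADAMTS1 was lower in cryopreserved keratinocyte-like cells, with 381 and 269 CPM (log2 ratio -0.51, interval -0.58 to -0.43).

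In dendritic-like cells, ADAM28 had 134 fresh and 73 cryopreserved UMIs, or 81.0 and 38.1 CPM, a log2 ratio of -1.11 (interval -1.55 to -0.69). ADAM9 had 221 and 150 CPM there (-0.58, -0.81 to -0.36). The share of collagen UMIs in this class was 0.203% for fresh and 0.0709% for cryopreserved cells, and its part in these differences was not tested. Over all classes, 68 pairs of a member and a class had at least 200 UMIs, of which 11 had an interval above 0 and 27 an interval below 0. Of all 32706 pairs of a gene and a class with that many UMIs, 24.2 percent had an interval above and 25.0 percent one below 0. A size of 0.5 was reached by 2 member pairs that were higher (8.44 percent of all pairs) and 5 that were lower (6.08 percent), and a size of 1 by the ADAM28 pair (1.22 percent). In dendritic-like cells 337 of 2627 genes were lower by 0.5 or more and 39 by 1 or more. ADAM9 was lower in the cryopreserved library in dendritic-like, CD163/CD209 myeloid-like (-0.48), lymphatic-like (-0.33) and endothelial-like cells (-0.26), and had -0.04 in fibroblast-like and -0.03 in keratinocyte-like cells.

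**Figure D5:**
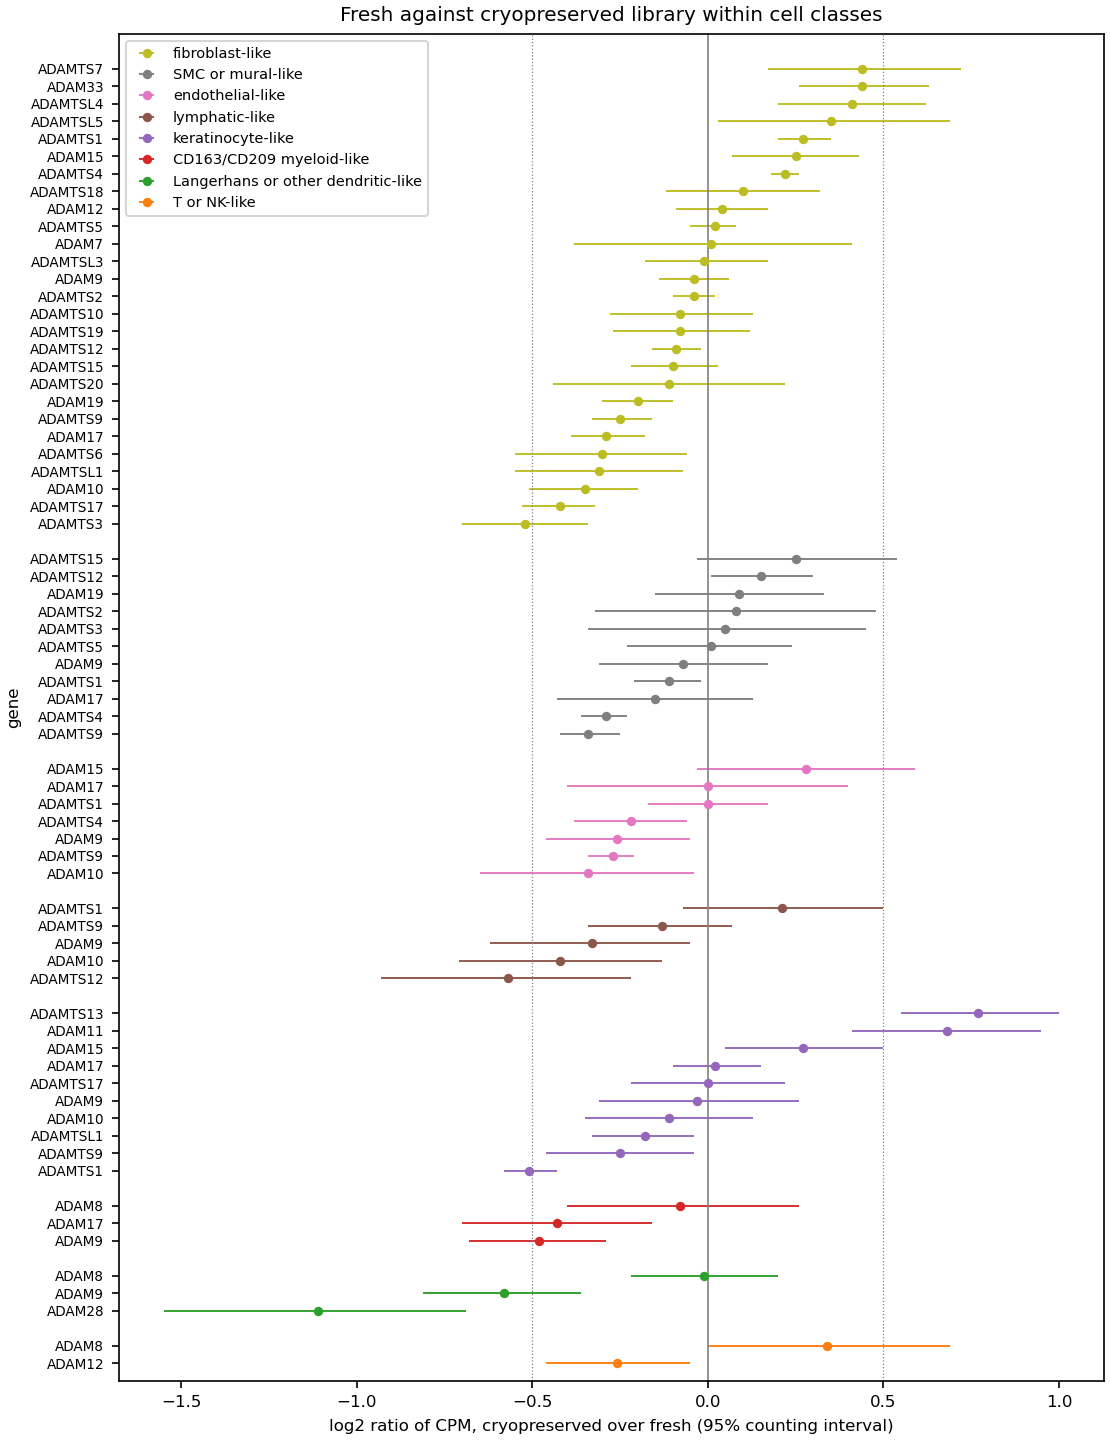
Log2 ratio of CPM, cryopreserved over fresh, with 95% counting intervals, for the 68 pairs of a member and a cell class with at least 200 UMIs, grouped and coloured by class. Most points lie within 0.5 of 0 (dotted lines), and the points farthest from 0 are ADAM28 in dendritic-like cells (-1.11) and ADAMTS13 in keratinocyte-like cells (0.77).

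The inhibitors, partners and substrates of these proteases were followed in a list of 46 genes, of which 36 reached 200 UMIs. Of these 36, 4 were higher by 0.5 or more in the cryopreserved library (TIMP1, TGFA, EREG and NOTCH1), beside 8.24 percent of all genes. By that size 1 was lower (RECK), beside 4.86 percent, and 0 reached a size of 1, beside 1.05 percent. TGFA, EREG, NOTCH1 and RECK are named here after their values were seen. TIMP1, a secreted metalloprotease inhibitor, had 44938 fresh and 74027 cryopreserved UMIs (1374 and 2045 CPM, log2 ratio 0.57, interval 0.56 to 0.59) and was highest in SMC or mural-like cells. RECK, a membrane-anchored inhibitor, had 62.4 and 34.9 CPM (log2 ratio -0.84, interval -0.94 to -0.74). TIMP3 had 334 and 287 CPM (-0.22, -0.26 to -0.18) and was highest in lymphatic-like cells. TIMP2 had 528 and 585 CPM (0.15, 0.12 to 0.18), and TIMP4 had only 62 and 57 UMIs. The 5 listed inhibitors thus went both ways, with a median log2 ratio of -0.035 over the 4 with at least 200 UMIs.

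RHBDF2, which carries ADAM17 to the cell surface, had the most UMIs of the ADAM17 partners and was highest in CD163/CD209 myeloid-like cells (160 and 164 CPM, log2 ratio over all cells 0.33). TSPAN5 had the most UMIs of the ADAM10 partners, with a log2 ratio of -0.38. CD44, a hyaluronan receptor, led the shed proteins with 1243 and 1339 CPM, and VCAN, which encodes the proteoglycan versican, led the proteoglycans with 437 and 367 CPM (-0.25). COL1A1 had 22700 and 25330 CPM (0.16), and PCOLCE, an enhancer of procollagen processing, 625 and 617 CPM (-0.02). The median log2 ratio was 0.36 over the 13 shed proteins with at least 200 UMIs and between -0.27 and 0.215 in the other groups. These are sums over all cells, and several of the shed proteins were highest in keratinocyte-like cells, whose share differed between the libraries. Within keratinocyte-like cells the median of the 11 shed proteins with at least 200 UMIs there was 0.21. The 11 ranged from -0.14 (NOTCH2 and IL6R) to 0.69 (NOTCH3), with 0.47 for NOTCH1 and 0.46 for TGFA. CDH1, an epithelial cadherin, had 793 and 796 CPM in these cells, beside a log2 ratio over all cells of 0.32. AREG, a ligand of the EGF receptor, had 183 and 175 CPM there, beside 0.47 over all cells. In CD163/CD209 myeloid-like cells AREG had 19.7 and 101 CPM and in dendritic-like cells 70.1 and 173 CPM. The part of class shares in these ratios was not tested. Of the listed genes under 200 UMIs, RHBDF1, COL2A1, NCAN and COMP had log2 ratios above 1 in size on few UMIs: RHBDF1 and COL2A1 each had 1 fresh and 5 cryopreserved UMIs, NCAN had 21 and 11, and COMP had 14 and 2.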

How the data were processed

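The authors mapped the reads with Cell Ranger version 4.0.0 (STAR version 2.5.1b is also named in the submitters' processing notes) to Sscrofa11.1 with the Ensembl annotation, and deposited raw UMI counts per gene and barcode for each library, without normalization. From these counts, cells with at most 4500 genes, 30000 UMIs and 10% mitochondrial UMIs (13 genes) were kept, as the study's methods state. The fresh and the cryopreserved library held 32274985 and 36687009 UMIs in these cells.

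Libraries were integrated with Seurat version 5.3.0 in R version 4.3.3 (2000 features without the members, 15 of which were otherwise among them, 30 dimensions, resolution 0.8). Clusters were named from a class with 3 or more raised markers. Raised meant detection in at least 10% of cells and a level at least 2-fold above the median CPM over clusters (5 CPM added). Where several classes met this, the one with the highest mean log2 fold over its markers was taken, with values below 0 set to 0. Cluster 11, the whole dendritic-like class, had 5 dendritic and 8 CD163/CD209 myeloid markers raised. Cluster 14, the lymphatic-like class, had 7 lymphatic and 7 endothelial markers raised. No doublets were removed. Leaving out the 6% of cells with the highest Scrublet scores (scanpy version 1.11.5) was an alternative.

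UMIs were summed per library and class, and scaled with TMM factors from edgeR version 4.0.16 for the log2 ratios and for the levels over all cells. Levels within classes used plain class totals. Log2 ratios used 0.5 UMIs added to both sums. Intervals are exact Poisson intervals for levels, exact binomial (Clopper-Pearson) intervals for shares and intervals from the exact binomial for ratios (scipy version 1.17.1). They cover counting error only. No test was run, because each condition had 1 library. All members with at least 200 UMIs over both libraries were named, with others given by their UMIs, and of the related genes the one with the most UMIs in each role and any with a log2 ratio of 1 in size. Ratios and intervals were run on simulated data with independent Poisson counts per gene. The intervals assume the same, so this cannot show how they hold where UMIs cluster within cells. The members, gene lists and markers were chosen with earlier results of these data known. RefSeq's Sscrofa11.1 annotation gave positions and coding sequences. Alternatives were other scalings (total UMIs, size factors of DESeq2 version 1.42.0), minimums of 50 and 1 UMI, other cell filters, fresh class shares, other clusterings and leaving out the cell with the most UMIs of a gene.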

Additional observations from a re-analysis of the deposited data

Results flagged for a closer look

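Of 17 members with at least 200 UMIs in 2 or more classes, 10 had log2 ratios of both signs. For 3 of these, counting intervals lay on both sides of 0 in different classes. The same counts over all genes were not made, so these cannot be read as particular to the members. Among all pairs of a gene and a class, 24.2 percent had an interval above 0 and 25.0 percent one below 0. Whether the differences between the libraries differed between classes was not tested. The log2 ratio of ADAMTS1, cryopreserved over fresh, was 0.27 in fibroblast-like, -0.11 in SMC or mural-like and -0.51 in keratinocyte-like cells. That of ADAMTS4 was 0.22 in fibroblast-like, -0.29 in SMC or mural-like and -0.22 in endothelial-like cells. That of ADAMTS12 was 0.15 in SMC or mural-like, -0.09 in fibroblast-like and -0.57 in lymphatic-like cells, where it rested on 200 and 101 UMIs. Among the fibroblast-like clusters the ADAMTS4 level on plain totals went both ways, as given above. The part of cluster shares in these log2 ratios, which used TMM factors, was not tested.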

How the results depend on the processing

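No paired analysis was possible because each condition had 1 library. For the family over all cells, the median log2 ratio moved to -0.09 with all barcodes and to 0.04 with the fresh class shares, where the median size was 0.15 and 13 members were below 0. The number of members of at least 1 in size was 0 with all barcodes, without the mitochondrial limit and with the fresh class shares. Without a filter on low UMIs it was 3, and 10 members reached 0.5. In fibroblast-like cells 3 members reached 0.5 (1 with the minimum of 200 UMIs) with a minimum of 50 UMIs and 8 without a filter, where 3 reached 1. Without a filter, members such as ADAM3A (8 fresh and 2 cryopreserved UMIs) and ADAM2 (7 and 3) enter. Shares of all genes at these lower minimums are not given here, so these counts cannot be read as results about the members. The summed level of the family was 2289 CPM (fresh) and 1953 CPM (cryopreserved) with total UMIs, and 1988 and 1885 CPM with all barcodes, beside 2258 and 1980. Total UMIs moved the median over all genes from 0.03 to -0.01 and DESeq2 size factors left it at 0.03. Single members were recomputed under the alternatives, which gave 507 values. A minimum of UMIs does not change a member's ratio. The 60 values at the minimum of 50 UMIs and the 60 without a filter could therefore not move. Of all 507 values, these included, 467 stayed within their counting interval and 28 moved out of it. The other 12 had an interval below 0 and turned to the other side of 0 or to 0. With the fresh class shares these were ADAMTS5 (0.12), ADAMTS4 (0.11), ADAMTS2 (0.07), ADAM12 (0.05), ADAMTS15 and ADAMTSL3 (both 0.04), ADAMTS19 (0.03), ADAMTS12 (0.01) and ADAMTS10 (0.0), and with all barcodes ADAMTS4 (0.13), ADAMTSL3 (0.07) and ADAMTS15 (0.02). Such changes were not counted over all genes, and the cause was not tested beyond the class shares themselves. The call of the highest class (which class, and whether it was shared by both libraries) changed for 7 of the 33 members with TMM factors over the classes (ADAM9, ADAM22, ADAMTS3, ADAMTS7, ADAMTSL3, ADAMTS6 and ADAM19) and for 1, ADAM8, without integration. It changed for 0 at resolutions 0.4 and 1.2, with members kept in the clustering, without the cell with the most UMIs and without the cells with the highest doublet scores. Depth limits the low members: 11 of 44 had under 200 UMIs.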
